A study of Mus musculus with 8 samples.

Results

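The SMYD methyltransferases, encoded in the mouse by Smyd1, Smyd2, Smyd3, Smyd4 and Smyd5, were followed in embryos with knockdown (KD) of Smarca5, also called Snf2h, and in embryos of a control group labelled NC. The 5 genes were taken by their symbols out of 21517 genes listed in either of the deposited tables, and all 5 were listed at both stages. The family was chosen by the KD and NC values of Smyd1 in blastocysts, since earlier results of these same data had Smyd1 higher in KD blastocysts. The blastocyst difference of Smyd1 is therefore given as a description, with no test, while its morula values and the values of the other 4 genes were not used in that choice. Polyadenylated RNA was sequenced from KD morulae, NC morulae, KD blastocysts and NC blastocysts, with 2 libraries per group and 20 embryos per library. Embryonic days 3.75 and 4.25 are named for the series, with no link to a stage. How the knockdown was made, what the letters NC stand for, and the strain are not given in the sources used here.

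SMYD proteins carry a SET domain, the fold that transfers methyl groups to lysines, which is split by a MYND zinc finger that binds other proteins. Their targets are both histones and other proteins. SMYD1 is the muscle member, needed in the mouse for heart formation and sarcomere assembly. SMYD2 methylates histone H3 and proteins such as p53 and RB1, SMYD3 methylates histones and the kinase MAP3K2, and SMYD5 methylates histones and a ribosomal protein. SMYD4 is the least studied and has been tied to heart development in zebrafish.

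Morula libraries had an estimated 16177240 to 18568756 reads each, and blastocyst libraries 13958296 to 23304923. The values are normalized abundances, scaled between the libraries of a stage but not between stages and not divided by gene length. A value of 1 stood for about 1 read, on an assumption given below that made 1 read worth 0.811 to 1.36 units in the 8 libraries. Smarca5, the targeted gene, was 501 and 470 in KD morulae against 9678 and 9760 in NC morulae. In blastocysts it had values of 906 and 855 in the KD libraries against 7000 and 8283 in the NC libraries. Tests were made on log2(value + 1) with limma, with p adjusted over all genes that averaged at least 10 units in a stage, and a gene passed at an adjusted p under 0.05. Smarca5 fell at both stages, with log2 fold changes of -4.32 in morulae (SE 0.13, adjusted p = 0.000188) and -3.11 in blastocysts (SE 0.12, adjusted p = 0.000593). The labelled tissue was checked on 5 trophectoderm and 5 inner cell mass markers, all listed in every group. The summed trophectoderm markers were 98947 and 110405 in KD blastocysts against 88903 and 87512 in NC blastocysts. The summed inner cell mass markers were 29926 and 30315 in KD blastocysts against 32406 and 34797 in NC blastocysts. In morulae the trophectoderm sum was 29030 and 26424 in KD against 34470 and 29558 in NC, and the inner cell mass sum was 38464 and 36238 in KD against 36113 and 39217 in NC. The trophectoderm sum was therefore higher in each KD blastocyst library and lower in each KD morula library. The inner cell mass sum was lower in KD blastocysts and overlapped in morulae. Krt8 and Krt18 made up most of the trophectoderm sum in blastocysts, and Pou5f1 most of the inner cell mass sum. Of the 5 trophectoderm markers 4 were higher in both KD blastocyst libraries, and Tfap2c overlapped (log2 fold change -0.10). In morulae 3 were lower in both, while Cdx2 (0.10) and Gata3 (0.41) overlapped. Of the 5 inner cell mass markers 4 were lower in both KD blastocyst libraries, and Nanog overlapped (-0.01). No single marker passed, and the part of these sums in the results below was not tested. In pooled embryos, fewer cells of a type and less RNA per cell cannot be told apart.

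Smyd1 (ENSMUSG00000055027; mm10 chromosome 6, 71213940 to 71322233, minus strand) was the member with the widest gap between KD and NC. In blastocysts its normalized abundance was 1172 and 1375 in the KD libraries against 192 and 228 in the NC libraries. Both KD libraries lay far above both NC libraries, and the mean was 1274 ± 144 in KD against 210 ± 25.3 in NC (SD, n = 2 each), a ratio of 6.06 (log2 fold change 2.59, SE 0.17). With any 1 of the 4 libraries left out the log2 fold change was 2.47 to 2.72. In morulae Smyd1 was 207 and 92.5 in KD against 84.9 and 88.7 in NC libraries. Both KD libraries were higher there too, but replicate 2 exceeded NC replicate 2 by only a few units, so the gap rested on KD replicate 1. The morula difference did not pass (log2 fold change 0.67, 95% interval -0.39 to 1.72, SE 0.44, limma adjusted p = 0.651). Without KD replicate 1 it was 0.09 and without KD replicate 2 it was 1.25.

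**Figure D1:**
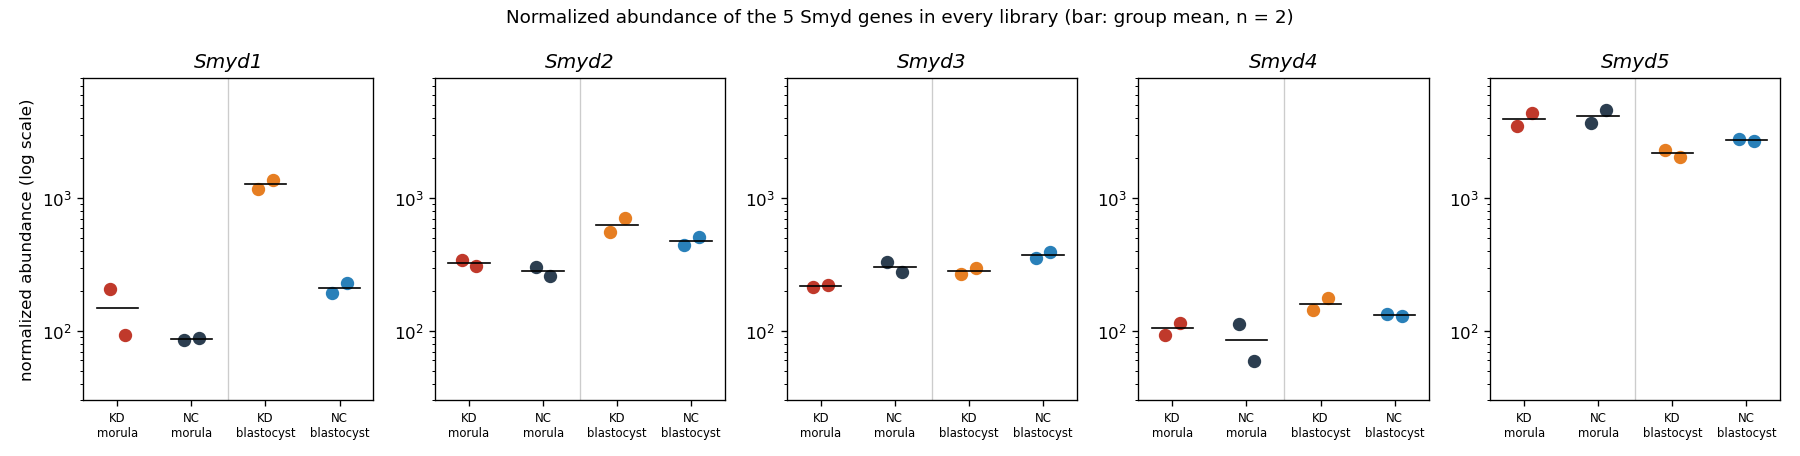
Normalized abundance (log axis) of each Smyd gene in the 8 libraries, in the order KD morulae, NC morulae, KD blastocysts, NC blastocysts. Each point is 1 library and each bar the mean of 2. Smyd1 stands at 1172 and 1375 in KD blastocysts against 192 and 228 in NC blastocysts, while Smyd5 is the most abundant member in all groups.

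Within a library, 81.6% and 83.9% of the listed genes had a lower value than Smyd1 in KD blastocysts, against 57.2% and 58.7% in NC blastocysts. In morulae the share was 58.8% and 50.4% in KD against 50.4% and 50.8% in NC. Smyd1 thus ranked near the middle of the listed genes in morulae and NC blastocysts, and well above it in KD blastocysts.

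The promoters are shown because their sequences set Smyd1 apart from Smyd2, Smyd4 and Smyd5. Each window of RefSeq (build GRCm38.p6, the assembly of mm10) runs 5′ to 3′ on the gene's own strand from 250 bases before the start site to 50 after it. CpG dinucleotides, the sites of DNA methylation, are in capitals. A window was found for 4 of the 5 genes, and none is shown for Smyd3.
Smyd1 (chr6:71262232-71262531, minus strand): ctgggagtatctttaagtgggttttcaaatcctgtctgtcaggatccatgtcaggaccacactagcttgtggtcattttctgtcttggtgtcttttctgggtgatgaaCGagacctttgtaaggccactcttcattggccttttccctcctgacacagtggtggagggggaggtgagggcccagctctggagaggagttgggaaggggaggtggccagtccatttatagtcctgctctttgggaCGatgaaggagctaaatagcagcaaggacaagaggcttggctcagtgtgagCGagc
Smyd2 (chr1:189922242-189922541, minus strand): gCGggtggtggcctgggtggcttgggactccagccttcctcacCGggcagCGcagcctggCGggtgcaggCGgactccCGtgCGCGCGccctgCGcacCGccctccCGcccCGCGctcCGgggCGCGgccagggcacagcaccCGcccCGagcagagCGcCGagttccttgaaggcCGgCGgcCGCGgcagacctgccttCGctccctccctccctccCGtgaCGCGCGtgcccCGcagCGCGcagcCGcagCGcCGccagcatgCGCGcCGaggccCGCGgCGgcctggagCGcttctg
Smyd4 (chr11:75348183-75348482, plus strand): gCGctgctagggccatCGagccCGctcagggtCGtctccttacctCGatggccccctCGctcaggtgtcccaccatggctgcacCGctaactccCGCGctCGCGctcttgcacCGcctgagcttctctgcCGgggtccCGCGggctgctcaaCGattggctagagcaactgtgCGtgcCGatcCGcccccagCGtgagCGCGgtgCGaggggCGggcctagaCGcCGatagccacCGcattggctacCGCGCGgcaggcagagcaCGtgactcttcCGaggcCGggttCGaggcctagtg
Smyd5 (chr6:85431726-85432025, plus strand): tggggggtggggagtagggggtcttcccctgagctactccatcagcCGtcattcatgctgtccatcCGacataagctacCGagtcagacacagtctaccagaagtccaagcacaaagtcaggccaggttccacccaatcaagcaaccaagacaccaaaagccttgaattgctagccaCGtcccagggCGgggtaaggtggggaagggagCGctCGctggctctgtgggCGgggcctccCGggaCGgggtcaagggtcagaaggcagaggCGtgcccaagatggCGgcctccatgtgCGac

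The Smyd1 window holds 3 CpGs, against 43 in Smyd2, 34 in Smyd4 and 13 in Smyd5, and the median over 32851 mouse windows was 7. Only 23.3% of all windows held fewer CpGs than Smyd1, while 97.4% held fewer than Smyd2, 92.3% fewer than Smyd4 and 62.1% fewer than Smyd5. The ratio of observed to expected CpGs was 0.16 for Smyd1, 0.93 for Smyd2, 0.96 for Smyd4 and 0.47 for Smyd5. The GC content was 52.0%, 79.0%, 69.0% and 61.0% in the same order. Smyd1 therefore had the poorest of these 4 windows in CpGs. With 4 windows this is a description, and DNA methylation was not measured. Another annotated start of Smyd1, 60.0 kb upstream, lies outside its window.

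**Figure D2:**
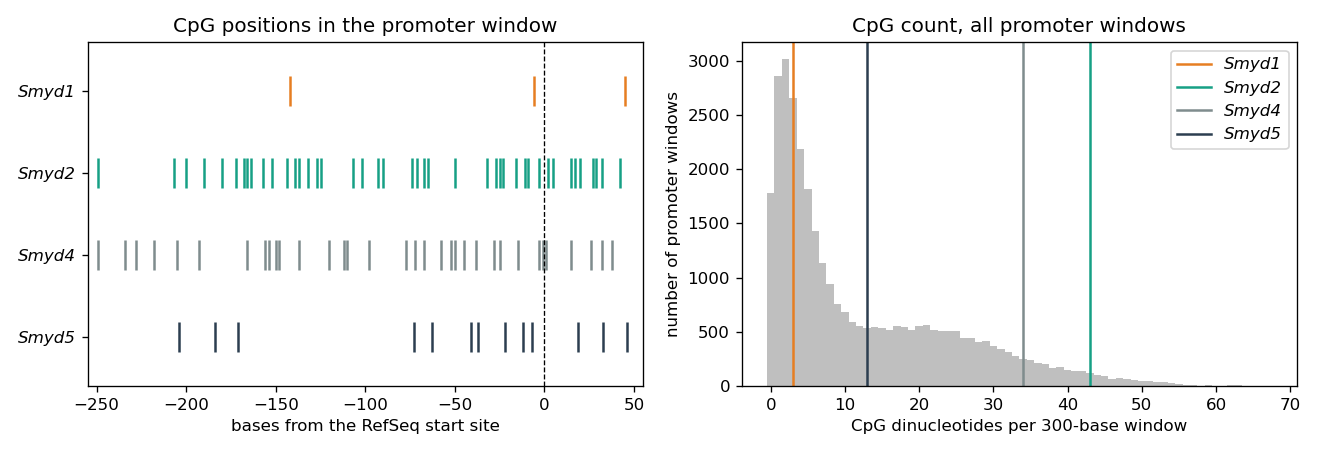
CpG dinucleotides in the promoter windows. The left panel marks each CpG by its distance in bases from the RefSeq start site for the 4 genes with a window. The right panel shows how many of 32851 mouse promoter windows hold each number of CpGs, with lines at 3 for Smyd1, 13 for Smyd5, 34 for Smyd4 and 43 for Smyd2.

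Letters of 5 motifs were searched on both strands of the windows. TATAAA, the core of a TATA box, was found in Smyd1 alone, on the opposite strand at position -28 from the start, and in 13.6% of all windows. CCAAT was found in Smyd1, Smyd4 and Smyd5 and in 37.4% of all windows. CANNTG, the E-box read by muscle regulators such as MYOD1, was found in Smyd4 and Smyd5 but not in Smyd1 or Smyd2, and in 72.3% of all windows. The MEF2 and SRF CArG box motifs were found in none of the 4 windows, and in 0.6% and 1.6% of all windows. CANNTG reads as itself on either strand, and no match of 1 motif shared a base with a match of another in these windows. The lack of a match says only that these letters are not there.

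Smyd1 has 6 annotated transcripts in GENCODE vM21, whose starts fall into separate places. Smyd1-201 starts at 71262281, inside the window above. Smyd1-203 starts at 71322233, 60.0 kb upstream and 555 bases from the start of Cd8b1, which encodes a chain of the T cell coreceptor CD8 and runs the other way. Smyd1 was first named Bop for this opposite orientation to Cd8b1. The values are per gene, so the transcript in use was not measured. Cd8b1 itself was 1.76 and listed at 0 in KD blastocysts against 2.70 and 8.93 in NC blastocysts. In morulae it was 3.83 and 9.76 in KD, and listed at 0 in both NC libraries. It was near 0 throughout and was below the abundance needed for a test.

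Krcc1, a gene that lies on the opposite strand inside the span of Smyd1-203, shares no exon base with Smyd1. It was 402 and 475 in KD blastocysts against 453 and 364 in NC blastocysts (log2 fold change 0.11, limma adjusted p = 0.814). In morulae it was 207 and 154 in KD against 287 and 137 in NC (-0.15, adjusted p = 0.928). KD and NC libraries of Krcc1 overlapped at both stages.

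Smyd2 (ENSMUSG00000026603; chromosome 1, 189880492 to 189922363, minus strand) was 560 and 708 in KD blastocysts against 443 and 510 in NC blastocysts. In morulae it was 342 and 308 in KD libraries against 306 and 259 in NC libraries. Both KD libraries were above both NC libraries at each stage, by a small margin in morulae, and neither difference passed. The log2 fold change was 0.41 in blastocysts (SE 0.18, 95% interval -0.02 to 0.83, limma adjusted p = 0.305) and 0.20 in morulae (SE 0.22, interval -0.33 to 0.74, adjusted p = 0.801). Exons of Smyd2 overlap those of an antisense gene over 814 bases, and a use of strand in counting is not stated, so reads of the pair cannot be told apart there.

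Smyd3 (ENSMUSG00000055067; chromosome 1, 178951960 to 179518041, minus strand) was the member lower in every KD library of both stages. It was 269 and 300 in KD blastocysts against 358 and 395 in NC blastocysts. In morulae it was 215 and 224 in KD libraries against 333 and 278 in NC libraries. KD and NC libraries did not overlap at either stage, and the KD mean was 24.4% below the NC mean in blastocysts and 28.2% below it in morulae. The log2 fold change was -0.40 in blastocysts (SE 0.18, 95% interval -0.84 to 0.04, limma adjusted p = 0.316) and -0.47 in morulae (SE 0.23, interval -1.03 to 0.09, adjusted p = 0.554), so neither passed.

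Smyd4 (ENSMUSG00000018809; chromosome 11, 75348433 to 75405705, plus strand) was among the least abundant members. It was 143 and 177 in KD blastocysts against 134 and 130 in NC blastocysts, with both KD libraries higher (log2 fold change 0.27, SE 0.26, 95% interval -0.35 to 0.88, limma adjusted p = 0.635). In morulae it was 93.7 and 115 in KD against 113 and 59.2 in NC, so the libraries overlapped (0.34, SE 0.42, interval -0.66 to 1.35, adjusted p = 0.830). The morula sign rested on NC replicate 2, without which the log2 fold change was -0.12. Rpa1, a subunit of the replication protein A complex, starts only 108 bases away on the other strand. It was 3487 and 3838 in KD against 2856 and 2866 in NC blastocysts. Its morula values were 2736 and 2378 in KD against 1988 and 1911 in NC libraries. Rpa1 was thus higher in each KD library of both stages, without passing (log2 fold change 0.35, adjusted p = 0.148 in blastocysts, and 0.39, adjusted p = 0.430 in morulae).

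Smyd5 (ENSMUSG00000033706; chromosome 6, 85431989 to 85446435, plus strand) was the most abundant member. In blastocysts it was 2320 and 2047 in KD libraries against 2775 and 2694 in NC libraries, with both KD libraries lower. Its log2 fold change was -0.33 (SE 0.11, 95% interval -0.58 to -0.07), which did not pass over all genes (limma adjusted p = 0.196). In morulae Smyd5 was 3490 and 4400 in KD against 3685 and 4607 in NC libraries. The 2 libraries of a group differed more there than the groups did, and the log2 fold change of -0.07 (SE 0.17, interval -0.48 to 0.34, adjusted p = 0.921) became 0.09 without KD replicate 1 or without NC replicate 2.

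**Figure D3:**
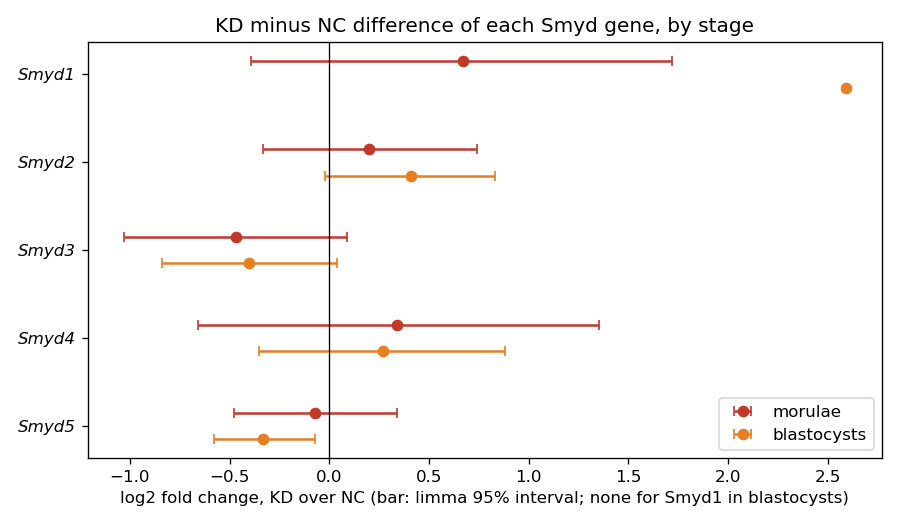
Log2 fold change of KD over NC for the 5 Smyd genes in morulae and blastocysts, with the limma 95% interval as bars. No bar is drawn for Smyd1 in blastocysts, the value that chose the family. Smyd1 in blastocysts lies at 2.59, and the other 9 points lie between -0.47 and 0.67.

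None of the 5 members passed in morulae at an adjusted p under 0.05 in limma, and neither did any of the 4 members other than Smyd1 in blastocysts. In all, 0.00746% of 13404 tested genes passed in morulae and 0.0879% of 13651 in blastocysts. At an unadjusted p under 0.05, 1391 genes were counted in morulae and 2398 in blastocysts, and of the 9 member tests only that of Smyd5 in blastocysts was among them. In morulae KD libraries lay above NC for 2 members and below for 1, where 20.7% and 21.2% of all tested genes did so. In blastocysts they lay above for 3 members and below for 2, where 24.6% and 24.9% of all tested genes did so. The blastocyst count includes Smyd1, whose value chose the family.

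The KD change in blastocysts was then set against that in morulae, in 1 fit of all 8 libraries. For Smyd1 the difference was 1.93 on the log2 scale (SE 0.49), a description that uses the chosen value, and it ranged from 1.35 without KD morula replicate 2 to 2.50 without KD morula replicate 1. For the others it was 0.20 (Smyd2), 0.07 (Smyd3), -0.08 (Smyd4) and -0.26 (Smyd5), with limma adjusted p from 0.930 to 0.990. Of 12875 genes tested for a difference between stages 0.0% passed, with 687 at an unadjusted p under 0.05. No stage difference was therefore detectable for these 4 members with 2 libraries per group.

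The mean KD change over both stages was added after the values had been seen, because Smyd2 and Smyd3 each kept 1 direction, so it restates that pattern and is no independent evidence for it. In that fit 2.99% of 12875 genes passed in limma, which is 385 genes, and 7 to 299 passed with 1 of the 8 libraries left out. The mean log2 fold change was 0.31 for Smyd2 (SE 0.14), -0.44 for Smyd3 (SE 0.14), 0.30 for Smyd4 (SE 0.25) and -0.20 for Smyd5 (SE 0.11). None of these 4 genes passed, with limma adjusted p from 0.125 to 0.530.

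Levels of different members can be compared per length, here as normalized abundance per kilobase of annotated exon. In KD morulae the order of the means was Smyd5 (674 ± 110), Smyd2 (120 ± 8.87), Smyd1 (33.0 ± 17.8), Smyd4 (24.1 ± 3.53) and Smyd3 (23.9 ± 0.699; SD, n = 2), and the last 3 overlapped. In NC morulae it was Smyd5 (709 ± 111 per kilobase), Smyd2 (104 ± 12.3), Smyd3 (33.3 ± 4.25), Smyd4 (19.9 ± 8.79) and Smyd1 (19.1 ± 0.580; SD, n = 2). Smyd4 and Smyd1 did not differ there beyond their spread, and each other neighbouring pair was separated in both libraries.

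In KD blastocysts the order was Smyd5 (373 ± 33.0 per kilobase), Smyd1 (280 ± 31.6), Smyd2 (233 ± 38.6), Smyd4 (37.0 ± 5.44) and Smyd3 (31.0 ± 2.34). In NC blastocysts it was Smyd5 (468 ± 9.77), Smyd2 (175 ± 17.5), Smyd1 (46.2 ± 5.57), Smyd3 (41.0 ± 2.90) and Smyd4 (30.6 ± 0.664; SD, n = 2). Smyd1 and Smyd2 overlapped in KD blastocysts, and Smyd1 and Smyd3 overlapped in NC blastocysts. Smyd1 therefore stood beside Smyd2 in KD blastocysts and beside Smyd3 in NC blastocysts. With the longest transcript as the length, Smyd1 and Smyd2 traded places in KD blastocyst replicate 2, and no other place changed.

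**Figure D4:**
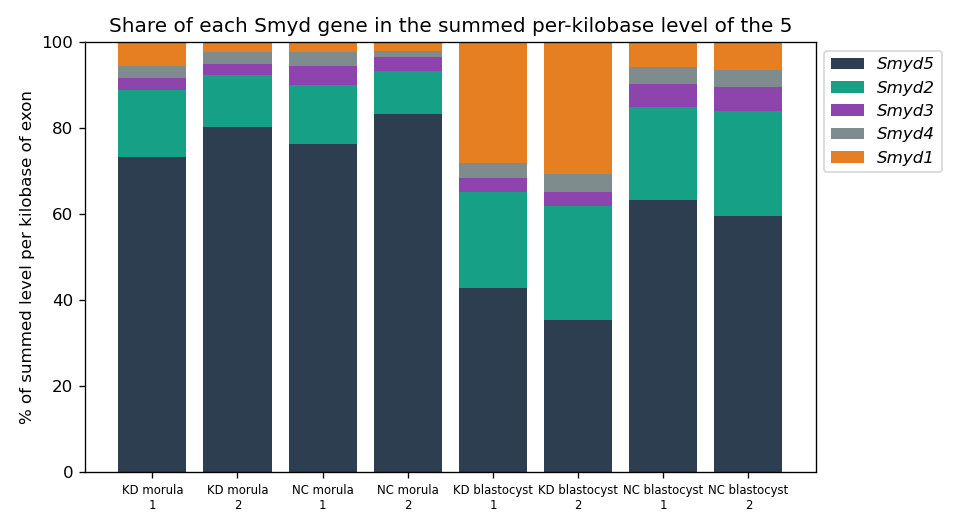
Share of each Smyd gene in the summed level per kilobase of exon of the 5 genes, in percent, for each of the 8 libraries. Smyd1 makes up 27.9% and 30.7% in the KD blastocyst libraries and 5.64% and 6.50% in the NC blastocyst libraries.

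As a share of the summed per-kilobase level of the 5 genes, Smyd5 made up 43.0% and 35.5% in KD blastocysts against 63.3% and 59.7% in NC blastocysts. In morulae it made up 73.4% and 80.3% in KD against 76.5% and 83.2% in NC. Smyd1 made up 27.9% and 30.7% in KD blastocysts against 5.64% and 6.50% in NC blastocysts. The summed level itself was 923 and 987 per kilobase in KD blastocysts against 750 and 772 in NC blastocysts. Without Smyd1 the other 4 genes summed to 665 and 684 per kilobase in KD blastocysts against 707 and 721 in NC blastocysts. The order of the groups thus turned round without the Smyd1 value that chose the family, and that value also enters every share.

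Since SMYD1 is a muscle protein, 35 genes of striated muscle were examined beside it. Of these 12 were abundant enough for a test in blastocysts and 11 in morulae, and none passed in either direction. The median log2 fold change was -0.08 in blastocysts and 0.36 in morulae, against 0.00 and -0.01 over all tested genes. It was 0.39 in blastocysts and 0.13 in morulae with every listed muscle gene included. The 9 defining muscle markers summed to 226 and 179 in KD blastocysts against 192 and 218 in NC blastocysts, with overlap, while Smyd1 alone was 1172 and 1375 in KD. Of the 6 markers tested there, 2 were higher in each KD library, Myh6 (log2 fold change 2.18) and Ckm (0.3). Myh6 was 6.08 and 30.9 in KD against 1.89 and 2.82 in NC, so it reached the abundance filter only through its KD values. Myh7 (-0.96) was lower in each KD library, the other tested markers overlapped, and none passed. The overlapping sum therefore mixed markers of opposite direction. Actc1, cardiac actin, was 14.6 and 10.6 in KD against 1.52 and 5.02 in NC. Myog, a muscle regulator, was 4.38 and 1.05 in KD against 4.04 and listed at 0 in NC. Both were too low for a test. In morulae 8 of the 9 markers were listed, with sums of 176 and 798 in KD against 145 and 332 in NC, of which Ttn, the giant sarcomere protein titin, made up 27.1 and 689 in KD and 42.0 and 235 in NC. The part of muscle markers in the morula value of Smyd1 was not tested.

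The muscle genes with the smallest p in blastocysts encode calcium-handling proteins. Ryr2, the cardiac calcium release channel, was 196 and 291 in KD blastocysts against 76.0 and 106 in NC blastocysts (log2 fold change 1.40, SE 0.31, limma adjusted p = 0.116). Casq2, a calcium-binding protein of the same store, was 17.8 and 21.9 in KD against 3.47 and 4.84 in NC (2.02, SE 0.71, adjusted p = 0.220). Both lay higher in each KD library without passing. In morulae Ryr2 was lower, at 284 and 339 in KD against 462 and 433 in NC (-0.53, adjusted p = 0.474), and Mylpf, a myosin light chain, was 1119 and 814 in KD against 1179 and 1379 in NC (-0.42, adjusted p = 0.545).

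T cell markers were examined because of the Cd8b1 neighbour. The 5 genes summed to 90.0 and 70.7 in KD blastocysts against 53.8 and 38.2 in NC blastocysts. Cd3d, a chain of the T cell receptor complex, was 38.4 and 21.6 in KD against a listed 0 and 1.24 in NC (limma adjusted p = 0.108). It was abundant enough for a test only through its KD values. The pan-leukocyte gene Ptprc was 1.75 and 5.20 in KD against 1.36 and a listed 0 in NC. Without Cd3d the other 4 markers summed to 51.6 and 49.1 in KD blastocysts against 53.8 and 36.9 in NC blastocysts and overlapped, so the gap in the sum rested on Cd3d. Cd3d was not alone in its direction. Cd3e, another CD3 chain, was 18.2 and 16.4 in KD against 10.5 and 9.87 in NC (log2 fold change 0.70, limma adjusted p = 0.595). Ptprc was also higher in each KD library, Cd8b1 was lower in each, and both were near 0. Cd8a overlapped, at 29.9 and 27.5 in KD against 39.2 and 18.1 in NC. The part of the T cell markers in the Smyd1 value was not tested. Cumulus and granulosa markers, of which 4 of 7 were listed, summed to 142 and 339 in KD blastocysts against 153 and 201 in NC blastocysts and overlapped. Foxl2, a transcription factor of granulosa cells, was 63.9 and 42.6 in KD blastocysts against 16.3 and 25.1 in NC blastocysts (log2 fold change 1.32, limma adjusted p = 0.240). The other listed markers, Inhba, Inhbb and Amh, overlapped in blastocysts, with Inhbb at 67.4 and 291 in KD against 129 and 165 in NC. In morulae Foxl2 was 109 and 77.1 in KD against 38.9 and 28.9 in NC (1.42, adjusted p = 0.402), so it was higher in each KD library of both stages without passing. In morulae the T cell sum was 68.4 and 56.6 in KD against 51.8 and 36.4 in NC, and the cumulus and granulosa sum was 238 and 260 in KD against 63.1 and 184 in NC. Both sums were higher in each KD morula library, and their part in the morula values was not tested. Hemoglobin genes summed to 7.05 and 87.8 in KD against 6.56 and 181 in NC blastocysts, and the oviduct markers to 14.1 and 16.1 in KD against 15.4 and 7.21 in NC blastocysts, with overlap in each case.

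Partners and substrates of SMYD proteins formed a list of 22 genes. None of the 17 tested in blastocysts or the 18 tested in morulae passed in either direction. The median log2 fold change was 0.03 and 0.02, with 10 of 17 above 0 in blastocysts and 9 of 18 in morulae, where 50.3% and 49.2% of all tested genes were above 0. In blastocysts the smallest p belonged to Akt1, a kinase (2370 and 2340 in KD against 3084 and 2729 in NC; log2 fold change -0.30, limma adjusted p = 0.215), and Unc45a, a myosin chaperone (0.20, adjusted p = 0.364). In morulae it belonged to the receptor Pdgfra (1179 and 809 in KD against 357 and 547 in NC; 1.14, adjusted p = 0.362) and to the chaperone Hsp90aa1 (-0.32, adjusted p = 0.413).

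A list of other SET-domain methyltransferases counted 22 genes, all tested at both stages, and none passed. It held only those acting on lysines 4 and 36 of histone H3 (H3K4 and H3K36) or lysine 20 of histone H4, and the SETD family. The median log2 fold change was -0.04 in blastocysts and -0.03 in morulae. Nsd2, a histone H3 methyltransferase, was 395 and 400 in KD blastocysts against 704 and 899 in NC blastocysts (log2 fold change -1.0, SE 0.17, limma adjusted p = 0.085). Kmt2a was 1869 and 1920 in KD against 1434 and 1361 in NC blastocysts (0.44, adjusted p = 0.124). In morulae the smallest p belonged to Kmt2e (-0.73, adjusted p = 0.412) and Setd7 (1.81, adjusted p = 0.494). Both KD libraries of Setd7 were higher at each stage, at 59.1 and 233 in KD against 21.1 and 24.0 in NC for blastocysts, and 34.2 and 172 in KD against 21.3 and 21.2 in NC morulae.

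Demethylases that remove methyl groups from H3K4 and H3K36 were 12 genes, 11 of them tested at each stage, and none passed. The median log2 fold change was 0.05 in blastocysts and -0.11 in morulae. Kdm5b had the smallest p in blastocysts (2247 and 2427 in KD against 3047 and 4628 in NC; log2 fold change -0.68, limma adjusted p = 0.156), followed by Kdm1a (-0.29, adjusted p = 0.185). In morulae Kdm5a (-0.41, adjusted p = 0.518) and Kdm1b (-0.50, adjusted p = 0.574) came first. Of 17 other genes with a MYND zinc finger 12 were tested at each stage and none passed, with medians of -0.08 in blastocysts and 0.02 in morulae. Ankmy2 was 854 and 854 in KD blastocysts against 527 and 534 in NC blastocysts (0.69, SE 0.13, adjusted p = 0.0998). In morulae it was 823 and 827 in KD against 648 and 643 in NC (0.35, adjusted p = 0.511). Cbfa2t2 in blastocysts (-0.44, adjusted p = 0.244) and Usp19 in morulae (0.19, adjusted p = 0.637) followed.

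Among the nearest coding neighbours of Smyd2, Smyd3 and Smyd5 that were abundant enough for a test, none passed. Tfb2m, next to Smyd3, was 452 and 497 in KD against 447 and 486 in NC blastocysts (log2 fold change 0.03, limma adjusted p = 0.954). Pradc1, next to Smyd5, differed on the log2 scale by 0.02 in blastocysts and -0.29 in morulae, and Ptpn14, next to Smyd2, by 0.18 and -0.42. Noto, on the other side of Smyd5, was 23.6 and 36.4 in KD against 52.6 and 59.8 in NC morulae (-0.91, adjusted p = 0.567).

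The genes whose profile was most like that of Smyd1 were found among 11749 protein-coding genes by the root mean square difference over the 8 libraries, after the NC mean of the stage was subtracted on the log2 scale. Gdpd1, a phosphodiesterase, was nearest (0.35), followed by Cemip, a hyaluronan-binding protein (0.38), Apobec2, a muscle-enriched member of the APOBEC family (0.40), Fbp1, the gluconeogenic enzyme fructose bisphosphatase (0.42), and Tbx18, a T-box transcription factor (0.46). Gdpd1 was 317 and 359 in KD against 46.0 and 49.4 in NC blastocysts. Its morula values were 216 and 138 in KD against 64.8 and 78.5 in NC libraries. Apobec2 was 44.8 and 66.1 in KD against 12.1 and 13.8 in NC blastocysts. These genes were picked for their likeness to a chosen value, so their blastocyst differences have no test here.

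**Figure D5:**
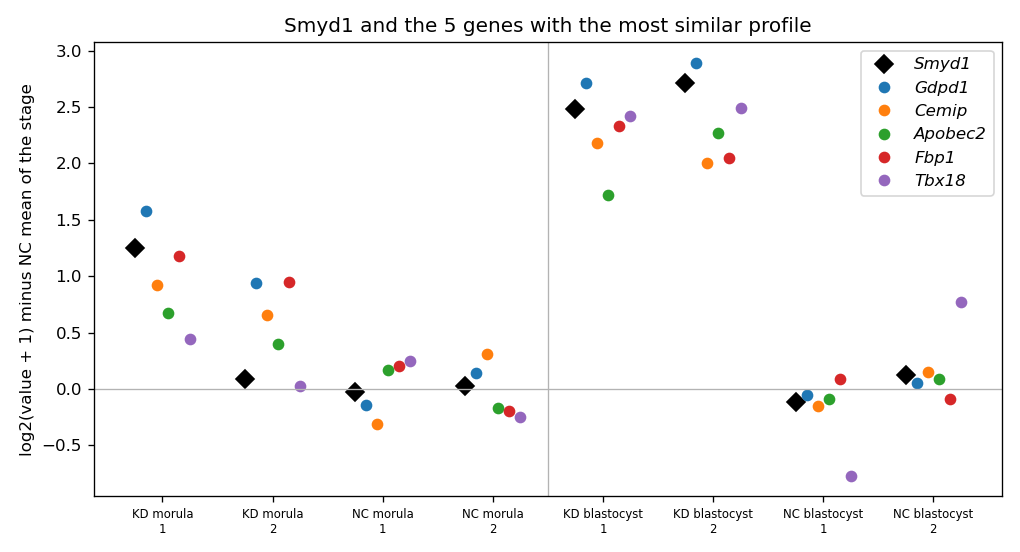
Log2(value + 1) minus the NC mean of the same stage for Smyd1 (black diamonds) and the 5 genes with the most similar profile (circles), in each of the 8 libraries. In KD blastocysts Smyd1 lies at 2.48 and 2.71 and the other 5 genes between 1.72 and 2.89, while in KD morulae Smyd1 lies at 1.25 and 0.09.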

How the data were processed

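Per the labels' protocols, polyadenylated RNA from pools of 20 embryos was extracted with a PicoPure kit and made into NEBNext Ultra libraries. The titles gave the groups. Separate litters are not stated, so a p-value here reflects the spread of 2 pools, possibly technical alone. The authors deposited 1 table per stage holding a normalized signal for each gene, scaled within the table. The submitters' processing notes name Salmon 0.14.1, DESeq2 and mm10 with no role for any.

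Genes with a mean of at least 10 over the 4 libraries of a stage, which all 5 Smyd genes reached, entered limma 3.58.1 (R 4.3.3, mean-variance trend) after log2(value + 1). P-values were adjusted by Benjamini-Hochberg over every gene in a fit and called under 0.05. The pseudocount makes changes of low genes look smaller. Of the Ensembl IDs 98.9% had a symbol, and coordinates and exon lengths came from GENCODE vM21.

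The most common value of genes found in a single library was assumed to stand for a fixed number of reads. Its multiples are whole by construction, so the share of whole values cannot check that assumption, and the read totals rest on it. Depth was estimated from the value of 1 read obtained in this way. In genes found in a single library 95.0% to 100% of values were whole multiples of it (tolerance 0.01), but low values of genes found in every library were whole in only 5.3% to 25.7%, so whole reads could not be recovered for a count model, and single values carry no counting interval.

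The members and lists were chosen with earlier results of these data known. Genes named from a list are the 2 with the smallest p per stage. Nearest coding neighbours, overlapping genes and the 5 most similar profiles complete the rule. The single genes of the marker sets, apart from the neighbour Cd8b1, were named after their values were seen. So were Setd7 in blastocysts and the genes Kmt2c, Map3k2, Trp53 and Pdcd2 set beside Ryr2. Alternatives were the pseudocount, filter, trend, scaling, shared fit, replicate block and each library left out.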

Additional observations from a re-analysis of the deposited data

Results flagged for a closer look

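Ryr2, the cardiac calcium release channel among the muscle genes, was ordered in opposite ways at the 2 stages, though it passed the test at neither. Both KD libraries lay above both NC libraries in blastocysts (196 and 291 in KD against 76.0 and 106 in NC) and below them in morulae (284 and 339 in KD against 462 and 433 in NC). On the log2 scale the difference between the KD changes, blastocysts minus morulae, was 1.93 (SE 0.38), and over all genes it missed the threshold (limma adjusted p = 0.674). Ryr2 was flagged for this opposite order of its libraries. The order was compared for Smyd2 to Smyd5 and for genes named by the rule from the lists, neighbours and similar profiles. Only genes abundant enough for a test at both stages entered, without the marker sets, and among these only Ryr2 had opposite orders. Ryr2 was not alone outside that comparison. Krt8, Krt18, Kmt2c and Map3k2 were also lower in each KD library in morulae and higher in each in blastocysts. Trp53, Pdcd2 and the neighbour Cd8b1, which was near 0, had the reverse orders. On the muscle list Ryr2 was 1 of 11 genes tested in morulae and 1 of 12 in blastocysts. Of all tested genes, 21.2% were lower in each KD library in morulae and 24.6% were higher in each in blastocysts. How many genes had both was not counted, so how unusual the order of Ryr2 is was not tested.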

How the results depend on the processing

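Under pseudocounts of 0.1 and 10, no filter, a minimum mean of 50, no mean-variance trend, quantile normalization, median centring, the shared fit of 8 libraries and the replicate block, 116 member values with a test kept their direction and side of the threshold, and 1, Smyd5 in blastocysts, passed with the block (log2 fold change -0.33, adjusted p = 0.0499). Another 18, all of Smyd1 and without a test, kept their direction. Same-numbered libraries deviated together (correlation across genes 0.297 in morulae, 0.146 in blastocysts), but with 2 numbers this does not show pairing. With the block the count of called genes was 892 in morulae, 1208 in blastocysts, 1 for the difference between stages and 1543 for the mean over both stages, against 1, 12, 0 and 385 without it. Without the trend 0 genes passed at either stage. The shared fit called 18 in morulae, no filter called 27 in blastocysts and a pseudocount of 0.1 called 2 for the stage difference. The cause of these shifts was not tested.

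With 1 library left out, an arm of 1 is assumed to vary like the others. Called genes then ranged from 1 to 3 in blastocysts, from 0 to 2 for the stage difference and from 7 to 299 for the mean over both stages. Each blastocyst library left out lowered the blastocyst count, and each blastocyst library and each KD morula library lowered the count for the mean by over 1.5 times, with 7 without KD blastocyst replicate 1. In morulae the count stayed at 1. The log2 fold change of Smyd4 in morulae ranged from -0.12 to 0.80 and that of Smyd5 from -0.24 to 0.09. The stage difference ranged from 1.35 to 2.50 for Smyd1, from -0.06 to 0.20 for Smyd3 and from -0.54 to 0.38 for Smyd4. Other values that moved by over 1.5 times without passing were those of Smyd2 (0.08 to 0.32 in morulae, 0.24 to 0.58 in blastocysts, 0.03 to 0.37 between stages), Smyd4 (0.12 to 0.41 in blastocysts, 0.07 to 0.53 for the mean) and Smyd5 (-0.42 to -0.09 between stages, -0.28 to -0.12 for the mean). Their lowest sizes came without NC morula replicate 2 or KD blastocyst replicate 2 for Smyd2, without KD blastocyst replicate 2 or NC morula replicate 2 for Smyd4, and without a morula library for Smyd5.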
